A study of Homo sapiens with 12 samples.

Results

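The comparison described here set arrays labelled shIRF1 against arrays labelled shCTRL when both had received CDDP, 3 arrays against 3 of the 12 arrays of the series. It covers every probe whose detection p-value was under 0.05 on 3 or more of these 6 arrays. That left 19125 probes, which stood for 15521 features after the brightest probe of each gene was kept: 11246 genes with 1 symbol and 4275 probes without a gene name here, out of 17988 features tested over all 12 arrays. All samples were SK-OV-3, an established human ovarian cancer cell line with an amplified ERBB2 gene. Per the labels the control cells were transfected with a scrambled shRNA and the others with an shRNA against IRF-1, and the CDDP samples of both kinds were collected at 24 hours of CDDP (cisplatin). The dose, whether the lines were clones or pools, and how the shRNA was selected are not given in the sources used here. The remaining 6 arrays carried the same shRNA labels without CDDP, and they served for the comparison of the shRNA effect with and without the drug. The labels do not state that replicates were separate cultures. The p-values therefore rest on the variation among the arrays of a group, and that variation may be only technical.

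IRF-1 (interferon regulatory factor 1) is a transcription factor that interferons induce and that binds repeated GAAA half-sites in the promoters of antiviral, antigen presentation and cell death genes. It is also induced by DNA damage in several cell types, and it has been described as a restraint on growth. Cisplatin forms platinum crosslinks within and between DNA strands, which stall replication and activate p53 and the damage checkpoints where these are intact.

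The 6 arrays with CDDP detected 18075 to 21126 probes, 38.2% to 44.7% of those on the array, with a median signal of 89.1 to 101 intensity units. Their normalised log2 levels correlated at 0.971 to 0.986 within a group over 6 pairs and at 0.951 to 0.977 between groups over 9 pairs, and the first principal component, with 41.9% of the variance, parted the shRNA labels. All 7 SK-OV-3 markers were detected, with ERBB2 at 10.79, 10.8 and 10.98 on the control arrays and 11.56, 11.14 and 11.74 on the shIRF1 arrays. None of 5 endothelial markers was detected on 3 or more arrays, nor were PTPRC and CD3E, which define leukocytes. The leukocyte list kept 2 of its 5 measured genes, CD14 and CD68, and its summed intensity ran from 833 to 950.3 on the control arrays and from 456 to 632 on the shIRF1 arrays. That sum rests on the brightest CD68 probe: other CD68 probes were at -0.08 (adjusted p = 0.891) and 0.21 (adjusted p = 0.745), and the mean of the CD68 probes was at -0.217 (adjusted p = 0.563). The part of these markers in the results was not tested. The fibroblast list kept 2 of 6, and its sum was 209.9 to 238.7 against 207.8 to 246.7. The arrays read RNA from whole cultures, so fewer cells of a kind and less RNA per cell cannot be told apart.

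IRF1 itself, the targeted gene, was lower on average on the arrays labelled shIRF1, but the difference did not pass the test across all features. With CDDP its normalised log2 level was 9.97, 10.38 and 9.38 on the control arrays and 8.94, 9.08 and 9.26 on the shIRF1 arrays. Every shIRF1 array lay below every control array. The change was -0.82 (SE 0.25, 95% interval -1.34 to -0.3), with adjusted p = 0.0811 and an unadjusted p of 0.00453 in limma's moderated test. Without control replicate 3, which had the lowest control value, it was -1.08 with adjusted p = 0.0209. Without CDDP the levels were 8.3, 8.51 and 7.84 against 8.59, 8.14 and 8.2, which overlapped, with a change of 0.1 (adjusted p = 0.902). The IRF1 values with CDDP thus pass or miss the threshold with the setting and those without CDDP show no fall, so they are a weak check of the shRNA labels, and every direction below is that of arrays labelled shIRF1 against arrays labelled shCTRL. IRF1 also passed without background correction (adjusted p = 0.0485), with a variance trend (adjusted p = 0.0442) and on the series matrix values (adjusted p = 0.0344). None of the other 5 detected IRF genes (IRF2, IRF3, IRF7, IRF8 and IRF9) was called, with 0.5 (adjusted p = 0.315) for IRF2 and 0.27 (adjusted p = 0.645) for IRF9.

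With CDDP, 691 of the 15521 features (4.45%) differed between the shRNA labels at an adjusted p under 0.05, 296 higher (1.91%) and 395 lower (2.54%) on the shIRF1 arrays. They included 591 named genes, 264 higher and 327 lower. The change reached 2-fold for 139 of the higher and 191 of the lower features, and 4-fold for 17 and 29. In 690 of the 691 the 3 shIRF1 arrays and the 3 control arrays did not overlap, whereas 22.6% of all features were separated in this way. The separation is read from the same 6 arrays as the calls and nearly follows from a call, so it adds no support. The largest rises and falls named below were also picked for it. The median size of a called change was 0.976 on the log2 scale, against a median change of -0.00895 and quartiles of -0.241 and 0.236 over all features, and the median standard error was 0.213. Higher calls made up 42.8% of all calls under quantile normalisation and 56.8% when each array was scaled to the same median instead (176 higher and 134 lower), so the balance of rises and falls depends on the scaling. Among the 11758 features detected on all 6 arrays, 205 were higher and 314 lower (4.41%). Of the 128 called genes followed through other settings, 23 of them for 64 genes and 24 for the other 64, 71 were called in every setting that gave them a value and none changed direction. The 128 were picked from these data by size of change, list or interaction, and the settings reuse the same arrays. A change of direction was thus unlikely from the start, and the 71 do not measure the stability of all 691 calls. Without background correction, called changes had a median size of 60% of the value given here, and 80 of the 128 moved by over 1.5 times. Leaving out shIRF1 CDDP replicate 3 or replicate 1 lowered the number of calls from 691 to 356 and 391. In what follows, levels are normalised log2 intensities listed in the order of replicates 1 to 3, all with CDDP unless stated, and a change is the log2 difference of shIRF1 minus shCTRL.

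**Figure D1:**
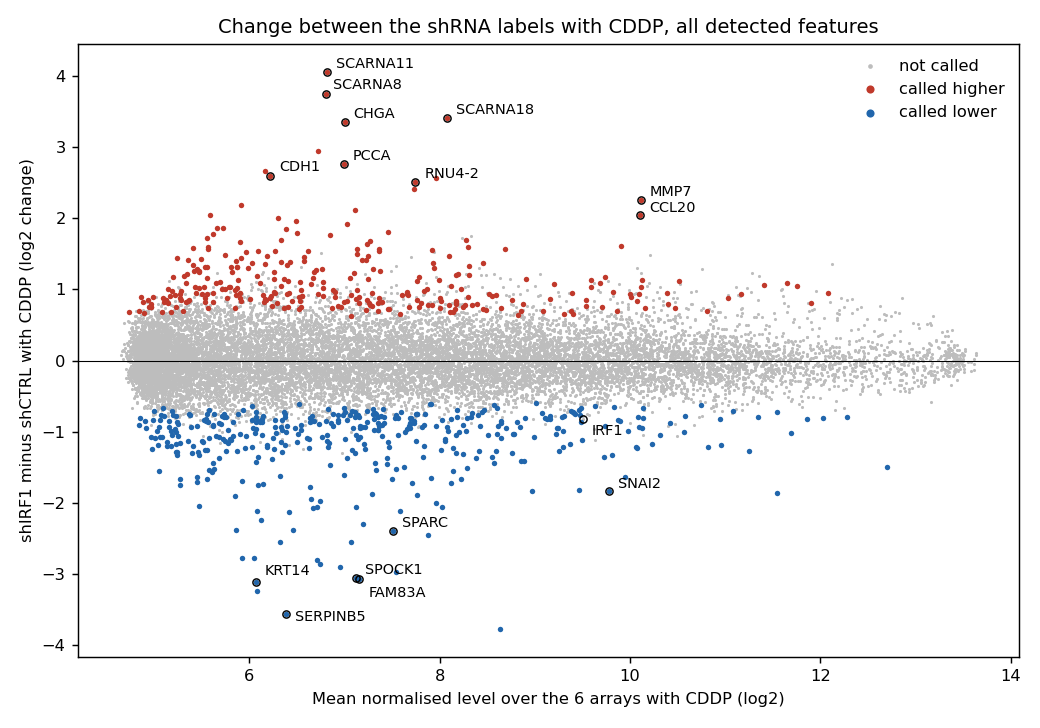
Log2 change of shIRF1 minus shCTRL with CDDP (vertical axis) against the mean normalised log2 level over the 6 arrays with CDDP (horizontal axis), 1 point per feature. Of 15521 features, the 296 called higher are red and the 395 called lower are blue; SCARNA11 and SCARNA8 lie at the top, SERPINB5 and KRT14 near the bottom, and IRF1 falls among the features that were not called.

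Genes of epithelial junctions and polarity were among the largest rises, and the repressor SNAI2 was among the largest falls. Of 22 detected members of the epithelial list, 5 rose (CDH1, CGN, PKP2, CLDN3 and CRB3), 1 fell (DSC2) and 16 did not pass the test. That is 27.3% called, against 4.45% of all features, with a median change of 0.306. CDH1 encodes E-cadherin, the adhesion protein of epithelial adherens junctions. Its level was 4.78, 4.94 and 5.06 on the control arrays, where 2 of 3 detected it, and 7.46, 7.1 and 7.98 on the shIRF1 arrays. The ranges lay far apart, and the change was 2.59 (SE 0.23, adjusted p = 6.81e-06). CGN encodes cingulin, a scaffold of tight junctions, with 6.19, 6.67 and 6.79 on the control arrays and 8.43, 8.1 and 8.55 on the shIRF1 arrays. Its change was 1.81 (SE 0.22, adjusted p = 0.000209), with the groups well separated. PKP2, a desmosomal plaque protein, stood at 5.07, 5.46 and 6.28 against 7.05, 7.43 and 7.71, a change of 1.8 (SE 0.29, adjusted p = 0.002); control replicate 3 came closest to the shIRF1 arrays.

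CLDN3 (claudin-3, a tight junction strand protein) had control levels of 5.71, 5.86 and 5.97 and shIRF1 levels of 7.7, 6.72 and 7.73, a change of 1.54 (SE 0.26, adjusted p = 0.00259). The second shIRF1 array was the lowest of its group and still above all controls. CRB3, a small transmembrane protein of the apical Crumbs polarity complex, read 5.55, 6.29 and 6.36 and 7.07, 7.45 and 7.49, a change of 1.27 (SE 0.22, adjusted p = 0.00293). DSC2, a desmosomal cadherin, went the other way, with 7.37, 7.51 and 7.54 against 6.64, 6.91 and 6.72 and a change of -0.72 (adjusted p = 0.0177). With single arrays left out, the call ended for DSC2 without shCTRL CDDP 2 or 3 or shIRF1 CDDP 1 or 3 (adjusted p 0.0509 to 0.0699).

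Among 10 detected mesenchymal and EMT (epithelial-mesenchymal transition) genes, SNAI2 and CDH2 fell and none rose (20% called, against 4.45% of all features), with a median change of -0.239. SNAI2 encodes Slug, a zinc finger repressor that binds E-boxes with the letters CAGGTG, among them those of the CDH1 promoter. It was at 10.97, 10.43 and 10.7 on the control arrays and at 8.8, 8.99 and 8.79 on the shIRF1 arrays. All shIRF1 arrays were well below all controls, with a change of -1.84 (SE 0.19, adjusted p = 2.71e-05), and a second SNAI2 probe changed by -1.68 (adjusted p = 0.000562). CDH2 (N-cadherin) read 9.58, 9.78 and 9.94 against 9.12, 8.91 and 9.1, a change of -0.72 (adjusted p = 0.0254). In fits without single arrays, the call was lost for CDH2 in 5 of the 12 fits without 1 array (adjusted p 0.0533 to 0.0818). TWIST1 did not pass, at -0.55 (adjusted p = 0.204), and nor did TAGLN, at -0.51 (adjusted p = 0.211).

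Promoter windows were at hand for 4 of the 6 called epithelial genes, CRB3, CLDN3, CGN and DSC2; those of CDH1 and PKP2 were not used here. RefSeq promoter windows of 300 bases on GRCh38.p14 around the start of each gene were searched for CAGGTG on both strands. The letters were present in 20.6% of all 27305 windows, in 18.3% of the 9053 windows of detected genes and in 9 of 16 epithelial list windows (56.2%). They were present in 24.9% of 189 windows of called higher genes and in 13.6% of 258 windows of called lower genes. CRB3 and CLDN3 are shown because both rose and both hold the letters, 5 times in CRB3 and once in CLDN3. The CRB3 window is chr19:6464021-6464320 on the plus strand and the CLDN3 window is chr7:73770221-73770520 on the minus strand, each printed 5′ to 3′ along its gene with every CAGGTG or its reverse complement in capitals.
CRB3: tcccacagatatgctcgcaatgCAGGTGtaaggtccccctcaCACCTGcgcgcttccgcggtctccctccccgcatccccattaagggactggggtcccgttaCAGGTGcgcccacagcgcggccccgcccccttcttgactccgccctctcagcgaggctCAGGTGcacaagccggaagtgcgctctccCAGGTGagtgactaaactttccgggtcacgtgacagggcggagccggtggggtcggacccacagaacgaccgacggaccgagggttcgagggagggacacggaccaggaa
CLDN3: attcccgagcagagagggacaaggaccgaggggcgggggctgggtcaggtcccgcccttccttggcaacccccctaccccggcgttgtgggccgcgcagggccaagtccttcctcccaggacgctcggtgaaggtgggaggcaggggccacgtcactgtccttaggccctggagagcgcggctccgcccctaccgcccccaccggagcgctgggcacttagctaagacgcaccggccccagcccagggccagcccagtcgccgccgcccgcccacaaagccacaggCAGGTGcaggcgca
In CRB3 the matches began at -228, -208, -147, -89 and -60 from the start site, the one at -208 on the opposite strand, and in CLDN3 the match began at 37. CGN rose as well, and its window held no match, while the window of DSC2, which fell, held 1. Among uncalled members of the list the letters were in the windows of TJP1, DSP, DSG2, PATJ, ELF3 and CDS1. They were absent from those of CLDN1, CLDN4, CLDN7, JUP, MARVELD2 and SPINT1. A match is a description of the letters and not of binding.

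**Figure D2:**
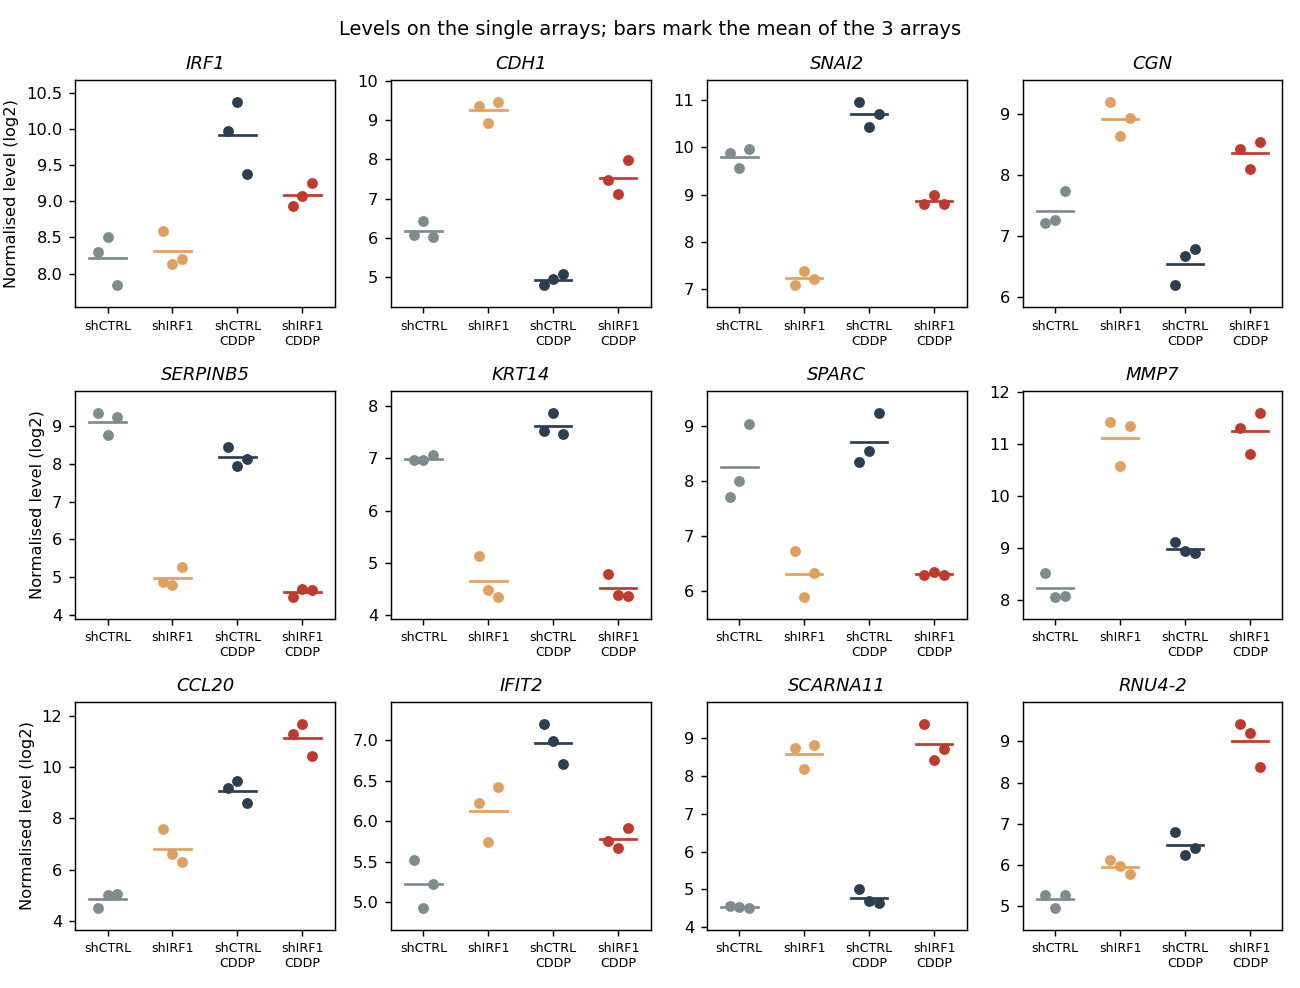
Normalised log2 level (vertical axis) of 12 genes on each of the 12 arrays, in the groups shCTRL, shIRF1, shCTRL with CDDP and shIRF1 with CDDP; points are arrays and bars are the mean of 3. The groups with CDDP do not overlap in any of the 12 genes, IRF1 overlaps without CDDP, the shIRF1 CDDP arrays of SERPINB5 and KRT14 lie at background, and the shIRF1 mean of IFIT2 is above the control mean without CDDP and below it with CDDP.

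Several of the largest falls were in basal keratins, a serpin and secreted proteins of the matrix. SERPINB5, which encodes maspin, a serpin of epithelial cells, was at 8.44, 7.94 and 8.13 on the control arrays and was not detected on any shIRF1 array. It was at least 9.99-fold lower with the shIRF1 label (adjusted p = 1.29e-07), and 1 of 9 detected serpins was called (11.1%, against 4.45% of all features). KRT14 and KRT16, keratins of basal and of activated keratinocytes, were at 7.53, 7.87 and 7.47 and at 7.99, 8.12 and 7.0 on the control arrays and not detected on any shIRF1 array. They were at least 6.84-fold and at least 7.25-fold lower, with adjusted p = 8.85e-07 and 2.72e-06. The probes of these keratins can share sequence with their paralogs, so the identity of each is uncertain. The other 7 detected keratins were not called, among them KRT8 at -0.42 (adjusted p = 0.28) and KRT18 at 0.68 (adjusted p = 0.404), the pair of simple epithelia. A second, dimmer KRT18 probe did pass, at 1.22 (adjusted p = 0.00563). Called shares were 22.2% of the keratins and 6.67% of 15 cornified envelope and S100 genes, against 4.45% of all features. The 1 call in the latter list was KLK11, a kallikrein protease, which changed by 1.31 (adjusted p = 0.0424). Leaving out single arrays cost the call of KLK11 in 9 of the 12 fits without 1 array (adjusted p 0.0552 to 0.166).

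In the extracellular matrix list 6 of 36 detected genes fell, 2 rose and 28 did not pass (22.2% called, against 4.45% of all features), with a median change of -0.248. The balance of calls depended on the setting. With detection at 0.01 on all 12 arrays 5 of 26 were higher and 4 lower, with a median of -0.199. Without background correction 5 were higher and 6 lower. SPOCK1, a secreted proteoglycan of the SPARC family, was at 8.91, 8.7 and 8.35 on the control arrays and at 5.83, 5.2 and 5.76 on the shIRF1 arrays. Both groups were tight, and the change was -3.06 (SE 0.22, adjusted p = 1.3e-06). SPARC (osteonectin, a collagen-binding matrix protein) was at 8.35, 8.54 and 9.23 against 6.3, 6.34 and 6.29, a change of -2.4 (SE 0.31, adjusted p = 0.000372), with the shIRF1 arrays nearly equal. ESM1 (endocan, a secreted proteoglycan) was at 8.05, 7.22 and 7.52 against 4.64, 5.27 and 5.24 and fell by 2.55 (adjusted p = 3.72e-05). EFEMP1, a fibulin-like protein, changed by -1.21 (adjusted p = 0.0053), LTBP2, a latent TGF-beta binding protein family member, by -1.13 (adjusted p = 0.0143), and LAMB1, a laminin beta chain, fell as well. The rises were LAMA5, a laminin alpha chain, at 0.95 (adjusted p = 0.0112), and FBLN2 (fibulin-2). Leaving out 1 array ended the call for LTBP2 without shCTRL CDDP 1 or shIRF1 CDDP 1 or 3 (adjusted p 0.0584 to 0.0761) and LAMA5 without shIRF1 CDDP 3 (adjusted p 0.0629).

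Matrix proteases and their inhibitors moved in both directions: 2 of 23 rose and 6 fell (34.8% called, against 4.45% of all features), with a median of -0.06. With detection at 0.01 on all 12 arrays 2 of 15 were higher and 1 lower, with a median of 0.169. MMP7 (matrilysin, a matrix metalloproteinase of epithelial cells) was at 9.11, 8.94 and 8.89 on the control arrays and at 11.32, 10.82 and 11.6 on the shIRF1 arrays. Every shIRF1 array was well above every control, with a change of 2.26 (SE 0.25, adjusted p = 7e-05), and a second MMP7 probe changed by 2.18 (adjusted p = 6.68e-05). The other rise was ADAMTS5, an aggrecan-cleaving protease. ADAM19, a membrane-bound disintegrin protease, had 7.07, 7.27 and 7.39 against 5.21, 4.76 and 5.05, a change of -2.24 (SE 0.19, adjusted p = 4.95e-06). MMP1 (interstitial collagenase) was at 7.63, 8.51 and 8.53 against 6.76, 6.04 and 6.24, a change of -1.88 (SE 0.29, adjusted p = 0.00129), and its groups were apart although control replicate 1 was the lowest control. PLAT, tissue plasminogen activator, was detected on all control arrays and on no shIRF1 array, and was at least 2.3-fold lower (adjusted p = 0.000938). MMP2 (gelatinase A) also fell. MMP28 changed by -1.75 (adjusted p = 0.000372) and ADAMTS6 by -1.21 (adjusted p = 0.0154); 2 further MMP28 probes changed by -0.46 and -0.53 and were not called. The test was no longer passed by ADAMTS6 without shCTRL CDDP 3 or shIRF1 CDDP 1 (adjusted p 0.0632 to 0.0758). PRSS3 (mesotrypsin), a gene with near-identical trypsinogen copies, was at least 6.01-fold lower (adjusted p = 3.1e-06).

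Among 18 integrins and adhesion receptors 11.1% were called, against 4.45% of all features. ITGB4, the beta chain of the hemidesmosomal integrin, rose by 1.01 (adjusted p = 0.0154) and ITGA3, a laminin receptor chain, fell by 0.79 (adjusted p = 0.0411). With the mean of all probes of each gene, neither passed, with ITGB4 at 0.63 (adjusted p = 0.124) and ITGA3 at -0.4 (adjusted p = 0.35). A further ITGB4 probe was called, at 0.996 (adjusted p = 0.0289), and a dimmer one was at -0.12 (adjusted p = 0.857). The other ITGA3 probe, also dim, was at -0.01 (adjusted p = 0.99). With single arrays left out, the call ended for ITGB4 without shCTRL CDDP 3 or shIRF1 CDDP 3 (adjusted p 0.0509 to 0.0739) and ITGA3 in 7 of the 12 fits without 1 array (adjusted p 0.0547 to 0.152). FERMT1 (kindlin-1, an integrin activator at focal adhesions) was at 7.77, 7.76 and 7.71 on the control arrays and at 5.83, 5.72 and 5.51 on the shIRF1 arrays. Both groups were tight, and the fall was 2.06 (SE 0.16, adjusted p = 2.72e-06).

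Growth and guidance pathways are given next, beside the 4.45% of all features that were called. Of 23 Wnt genes 3 fell (13%), all of them at the cell surface or secreted: SFRP1, a secreted Wnt antagonist, with 8.54, 8.18 and 8.41 against 6.81, 7.01 and 6.82 and a change of -1.5 (SE 0.18, adjusted p = 0.000209), FZD8, a frizzled receptor, at -1.25 (adjusted p = 0.0124), and DKK3, a dickkopf family member, at -0.79 (adjusted p = 0.0318). In fits without single arrays, the call was lost for FZD8 without shCTRL CDDP 1 or 2 or shIRF1 CDDP 1 (adjusted p 0.0501 to 0.0549) and DKK3 without shCTRL CDDP 1 or 3 or shIRF1 CDDP 2 or 3 (adjusted p 0.0579 to 0.104). DKK1, the Wnt inhibitor dickkopf-1, was at -0.67 (adjusted p = 0.284) by its brightest probe and -0.393 and -0.44 without shIRF1 CDDP 1 or shCTRL CDDP 3, while a second, dimmer probe passed, at -0.89 (adjusted p = 0.0437). In the TGF-beta, BMP and ID list 2 of 22 rose and 2 fell (18.2%). SMAD3, the receptor-activated signal transducer, was at 7.42, 7.1 and 7.76 on the control arrays and 8.68, 8.44 and 8.56 on the shIRF1 arrays, a rise of 1.13 (SE 0.19, adjusted p = 0.00268). TGFB2, a ligand, was detected on all shIRF1 arrays and on no control array, at least 1.71-fold higher (adjusted p = 0.0144). BAMBI, a decoy receptor, and SKIL, a SMAD corepressor, changed by -0.71 (adjusted p = 0.0404) and -0.68 (adjusted p = 0.038). Leaving out single arrays cost the call of TGFB2 without shCTRL CDDP 2 (adjusted p 0.0585), BAMBI in 10 of the 12 fits without 1 array (adjusted p 0.0548 to 0.13) and SKIL in 9 of the 12 fits without 1 array (adjusted p 0.0505 to 0.136). The list had a median of -0.0119, and scaling each array to the same median turned it to 0.0727.

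Semaphorins are secreted or membrane-bound guidance cues that act through plexins and neuropilins, and 3 of 30 genes of that list rose while 1 fell (13.3% called, against 4.45% of all features). SEMA3B was at 4.49, 6.19 and 5.23 on the control arrays and at 7.18, 7.36 and 7.38 on the shIRF1 arrays. The control arrays were widely spread and stayed below all shIRF1 arrays, with a change of 2.0 (SE 0.32, adjusted p = 0.00183); a second SEMA3B probe was at 0.77 (adjusted p = 0.109). SEMA4D rose by 0.99 (adjusted p = 0.0103) and SEMA3A by 0.94 (adjusted p = 0.00865), while SEMA6A went from 6.39, 6.13 and 6.5 to 5.08, 4.76 and 4.87, a change of -1.44 (SE 0.21, adjusted p = 0.000787). Leaving out 1 array ended the call for SEMA4D without shIRF1 CDDP 3 (adjusted p 0.0629). Of 12 EGF receptor ligands and receptors, 1 was called (8.33%): GRB7, the adaptor gene next to ERBB2 on chromosome 17, rose, with 6.44, 6.25 and 6.86 against 7.96, 7.58 and 8.24 and a change of 1.41 (SE 0.23, adjusted p = 0.00183). ERBB2 itself was at 0.62 (adjusted p = 0.0918). None of 16 mTOR complex genes was called. FGFRL1, a receptor of the FGF family without a kinase domain, fell from 8.51, 8.74 and 8.69 to 6.3, 6.52 and 6.77, a change of -2.12 (SE 0.19, adjusted p = 6.96e-06).

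Of 18 detected placental and germline genes 7 fell (38.9%, against 2.54% of all features), none rose and 11 did not pass. The median change was -0.295, and 7 members had positive changes. Among the 9 members detected at 0.01 on all 12 arrays the median was 0.224, with 1 called higher and 3 lower. The placental members were CGB5, CGB1 and CGB3, which encode the beta subunit of chorionic gonadotropin or its relatives, LHB, the luteinising hormone beta subunit, and PSG4, a pregnancy-specific glycoprotein. CGB5 was at 9.42, 8.91 and 8.97 on the control arrays and at 7.0, 6.86 and 6.1 on the shIRF1 arrays, a change of -2.45 (SE 0.23, adjusted p = 1.32e-05). CGB1 changed by -2.06 (adjusted p = 3.59e-05), LHB by -2.12 (adjusted p = 1.25e-05) and CGB3 by -1.09 (adjusted p = 0.00569). These genes lie in 1 cluster of near-identical copies on chromosome 19, so the probes cannot be taken as separate measurements. PSG4 changed by -2.06 (adjusted p = 0.000331), while its 2 further probes, near background, were at -0.82 and -0.66 and not called. SPANXA1, a sperm protein gene of a multicopy family on chromosome X, was at 8.46, 8.19 and 8.39 against 5.7, 6.27 and 5.42, a change of -2.55 (SE 0.22, adjusted p = 4.95e-06), and SPANXD fell as well.

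Genes described as targets of IRF-1 gave calls in both directions. Of 23 detected members of that list 2 rose (GBP2 and IDO1), 2 fell (PSMB8 and PSMB9) and 19 were not called; the median of the list was 0.0212. On the series matrix values the median was -0.132 with 2 higher and 4 lower, and with detection at 0.01 on all 12 arrays it was -0.387 with 1 higher and 3 lower of 12. Without background correction it was -0.0028 with 1 higher and 4 lower. With each array scaled to the same median it was 0.0314 with 1 higher and 0 lower. Without the control and the shIRF1 array of lowest weight it was 0.0276 with 0 higher and 2 lower. Of the 23, 17.4% were called with CDDP, against 4.45% of all features, and without CDDP 5 were called higher and 0 lower. The list was compiled from textbook knowledge with earlier results of these data known. GBP2, a guanylate-binding GTPase, was at 5.9, 5.54 and 5.76 on the control arrays and 6.88, 6.25 and 6.66 on the shIRF1 arrays, a change of 0.86 (SE 0.22, adjusted p = 0.0381). IDO1, the tryptophan-degrading dioxygenase, changed by 1.14 (SE 0.27, adjusted p = 0.0272) from 8.3, 8.34 and 8.39 to 9.84, 8.97 and 9.64. PSMB8 and PSMB9, catalytic subunits of the immunoproteasome, stood at 10.63, 10.65 and 10.33 against 10.1, 9.35 and 9.77 and at 7.15, 7.2 and 6.75 against 6.28, 5.62 and 6.09. Their changes were -0.8 (adjusted p = 0.0437) and -1.04 (adjusted p = 0.0424), and both were lower on all shIRF1 arrays than on any control. A second PSMB9 probe was at -0.03 (adjusted p = 0.966). Further PSMB8 probes were at -0.79 (adjusted p = 0.0588), -0.51 (adjusted p = 0.412) and -0.27 (adjusted p = 0.7085), and a second IDO1 probe was at 0.79 (adjusted p = 0.0873). None of these probes was called. The test was no longer passed by GBP2 in 7 of the 12 fits without 1 array (adjusted p 0.0516 to 0.141), IDO1 in 5 of the 12 fits without 1 array (adjusted p 0.0611 to 0.115) and PSMB8 in 9 of the 12 fits without 1 array (adjusted p 0.0507 to 0.137). The call also ended for PSMB9 in 7 of the 12 fits without 1 array (adjusted p 0.05 to 0.131). TAP1, the peptide transporter whose gene shares a promoter region with PSMB9, was at -0.72 (adjusted p = 0.083), CASP8 (caspase-8) at 0.76 (adjusted p = 0.14), and TNFSF10 (TRAIL) was undetected on all control arrays and did not pass (adjusted p = 0.215).

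Interferon-stimulated genes gave 1 rise and 3 falls among 38 detected members (10.5%, against 4.45% of all features). The median change was -0.128 and 22 values were negative, as were 7907 of the 15521 over all features. IFIT2, an antiviral protein with tetratricopeptide repeats, was at 7.2, 7.0 and 6.71 on the control arrays and at 5.76, 5.67 and 5.92 on the shIRF1 arrays. The shIRF1 arrays lay close together and below every control, with a change of -1.19 (SE 0.22, adjusted p = 0.00484). SAMD9, an antiviral and growth-restraining protein, went from 8.73, 8.66 and 8.92 to 7.62, 7.99 and 7.73, a change of -0.99 (SE 0.22, adjusted p = 0.0183). TRIM21, a cytosolic antibody receptor and ubiquitin ligase, went from 7.58, 7.36 and 7.99 to 6.9, 6.58 and 6.59, a change of -0.95 (SE 0.19, adjusted p = 0.0115). ISG20, an exonuclease, was the rise, with 7.47, 7.64 and 7.35 against 8.33, 8.14 and 8.31 and a change of 0.78 (SE 0.18, adjusted p = 0.023). With single arrays left out, the call ended for SAMD9 without shCTRL CDDP 3 or shIRF1 CDDP 1 or 3 (adjusted p 0.0621 to 0.0772), TRIM21 without shIRF1 CDDP 3 (adjusted p 0.0559) and ISG20 without shCTRL CDDP 1 or 3 or shIRF1 CDDP 1 or 3 (adjusted p 0.0588 to 0.0849). IFI44 was at -0.74 (adjusted p = 0.0619).

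Of 19 class I antigen presentation genes 16 had negative changes, with a median of -0.229, and 3 passed the test (PSMB9, PSMB8 and HLA-G; 15.8%, against 4.45% of all features). HLA-G was at 9.18, 9.3 and 9.46 against 8.79, 8.76 and 8.58, a change of -0.6 (adjusted p = 0.0489), and its probe can share sequence with other class I genes. In fits without single arrays, the call was lost for HLA-G in 12 of the 12 fits without 1 array (adjusted p 0.059 to 0.166). Of 4 class II genes HLA-DMB, a chaperone of peptide loading, rose by 1.25 (adjusted p = 0.0259). Leaving out single arrays cost the call of HLA-DMB without shCTRL CDDP 1 or 3 or shIRF1 CDDP 2 or 3 (adjusted p 0.0558 to 0.107).

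The GAAA half-site pair that IRF proteins bind was more frequent in the windows of these lists than in all windows. IRF proteins bind such sites in antiviral and antigen presentation genes, so this excess goes with list membership and is no result of the comparison. The called genes of this comparison had no such excess. The letters GAAANNGAAA, on both strands, were found in 3.65% of all 27305 windows, in 22 of 34 interferon-stimulated genes (64.7%), in 10 of 16 described IRF-1 targets (62.5%) and in 9 of 18 class I genes (50%). They were found in 1.59% of windows of called higher genes and 1.94% of windows of called lower genes, against 2.7% of the windows of all detected genes. Of the 22 interferon-stimulated genes with the letters 3 were called and the median change was -0.067, and of the 12 without the letters 0 were called and the median change was -0.155. The window of IFIT2, also a called interferon-stimulated gene, was not used here, and nor were those of the called IRF-1 targets GBP2 and IDO1. The windows of ISG20, SAMD9 and TRIM21 are shown because these are the called interferon-stimulated genes with a match; the windows of the called PSMB8, PSMB9 and HLA-G held none, whereas 9 of 15 uncalled class I genes and 10 of 14 uncalled IRF-1 targets had a match. They are chr15:88638766-88639065 on the plus strand, chr7:93117930-93118229 on the minus strand and chr11:4393653-4393952 on the minus strand of GRCh38.p14, from RefSeq, with the half-site pair in capitals.
ISG20: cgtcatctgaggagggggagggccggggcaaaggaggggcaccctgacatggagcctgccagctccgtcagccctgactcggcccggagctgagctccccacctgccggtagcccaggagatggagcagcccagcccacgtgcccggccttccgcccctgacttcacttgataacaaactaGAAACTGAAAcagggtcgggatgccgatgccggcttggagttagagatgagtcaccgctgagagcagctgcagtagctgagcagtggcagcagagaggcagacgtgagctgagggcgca
SAMD9: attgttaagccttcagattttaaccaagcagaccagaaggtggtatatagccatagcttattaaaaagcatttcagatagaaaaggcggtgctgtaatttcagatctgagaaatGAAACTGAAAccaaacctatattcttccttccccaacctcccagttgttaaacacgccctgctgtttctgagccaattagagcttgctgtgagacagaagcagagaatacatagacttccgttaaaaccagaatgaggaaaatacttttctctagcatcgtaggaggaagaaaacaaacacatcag
TRIM21: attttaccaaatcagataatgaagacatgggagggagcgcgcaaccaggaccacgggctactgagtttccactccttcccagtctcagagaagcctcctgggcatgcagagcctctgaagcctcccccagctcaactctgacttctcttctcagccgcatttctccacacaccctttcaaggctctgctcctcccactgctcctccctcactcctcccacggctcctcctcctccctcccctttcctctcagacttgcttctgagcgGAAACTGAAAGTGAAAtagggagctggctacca
The pair began at -69 in ISG20, at -136 in SAMD9, and at 18 and 24 in TRIM21, where the matches overlap.

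Of 22 cytokines and chemokines 1 was called (4.55%, against 4.45% of all features). CCL20, which attracts lymphocytes and dendritic cells through CCR6, was at 9.2, 9.46 and 8.58 on the control arrays and at 11.27, 11.67 and 10.43 on the shIRF1 arrays. Control and shIRF1 arrays did not overlap, and the change was 2.04 (SE 0.35, adjusted p = 0.00289). Without the control and the shIRF1 array of lowest array weight, a setting chosen after seeing the data, it was 1.72 (adjusted p = 0.0533). IL32 had 7.93, 8.02 and 6.42 against 9.74, 9.53 and 8.35, a change of 1.75 (SE 0.47, adjusted p = 0.0507) that just missed the threshold. A second IL32 probe was called, at 1.46 (adjusted p = 0.0286), and IL32 passed in 9 other settings; without the control and the shIRF1 array of lowest weight it was 0.968 (adjusted p = 0.359). TNF was at 0.88 (adjusted p = 0.176). Of 19 NF-kB subunits and regulators 10.5% were called. TNIP1, an inhibitor of the pathway, rose by 0.89 (adjusted p = 0.023) and TNFAIP2, a TNF-induced gene, by 1.15 (adjusted p = 0.0306). Leaving out 1 array ended the call for TNIP1 without shCTRL CDDP 1 or 3 or shIRF1 CDDP 1 or 2 (adjusted p 0.0578 to 0.1) and TNFAIP2 without shCTRL CDDP 1 or 3 or shIRF1 CDDP 1 or 2 (adjusted p 0.0571 to 0.127).

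Small noncoding RNAs of the H/ACA and Cajal body classes held many of the largest rises. H/ACA snoRNAs guide the conversion of uridine to pseudouridine in ribosomal RNA, and scaRNAs guide modification of spliceosomal RNAs in Cajal bodies; most of both are cut from introns of host transcripts and trimmed at the 3′ end by enzymes that include the deadenylase PARN. Of 16 detected SCARNA genes 9 rose and none fell, with a median of 1.02, and of 52 detected SNORA genes 15 rose and none fell, with a median of 0.536 and 48 positive values. Over all features 1.91% were called higher. A gene detected on the shIRF1 arrays alone could enter these lists, and such a gene can only come out higher. With detection at 0.01 on all 12 arrays, 12 SNORA genes were left, 3 of them higher, with a median of 0.365. Of the SCARNA genes 4 were left, 2 of them higher, with a median of 0.603. SCARNA11 was at 5.0, 4.69 and 4.65 on the control arrays, where 1 of 3 detected it, and at 9.38, 8.43 and 8.72 on the shIRF1 arrays. That change of 4.06 (SE 0.24, adjusted p = 1.29e-07) was the largest rise among named genes. SCARNA8 changed by 3.75 (SE 0.32, adjusted p = 5.99e-06) and SCARNA18 by 3.42 (SE 0.18, adjusted p = 7.38e-08), the latter from 6.23, 6.3 and 6.59 to 9.9, 9.57 and 9.89. SCARNA23 rose by 2.67 (adjusted p = 3.09e-06) and SCARNA16 by 2.41 (adjusted p = 6.96e-06).

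Among the H/ACA snoRNAs SNORA79 was at 4.81, 4.98 and 5.95 on the control arrays and 8.45, 8.03 and 8.09 on the shIRF1 arrays, a change of 2.94 (SE 0.25, adjusted p = 4.95e-06). SNORA63 was at 6.67, 6.42 and 6.94 against 9.56, 9.16 and 8.99, a change of 2.56 (SE 0.21, adjusted p = 3.17e-06). SNORA4 rose by 2.18 (adjusted p = 9.62e-05), SNORA28 by 2.12 (adjusted p = 0.00023), SNORA80A by 1.92 (adjusted p = 0.0022), SNORA38B by 1.86 (adjusted p = 1.71e-05) and SNORA21 by 1.7 (adjusted p = 0.00168). SNORA13 was undetected on all control arrays and at least 2.96-fold higher with the shIRF1 label (adjusted p = 0.000598). Each of these calls held with any single array left out. Some snoRNAs have near-identical copies in the genome, and probes within an intron also read the unspliced host transcript, so a probe's source is uncertain.

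The C/D class, which guides ribose methylation, had a share of calls near the 4.45% of all features: 2 of 55 SNORD genes rose and 1 fell (5.45%), with a median of 0.00241. SNORD33 was undetected on all control arrays and at least 1.68-fold higher (adjusted p = 0.0111), SNORD3C changed by 0.73 (adjusted p = 0.0406) and SNORD84 by -0.72 (adjusted p = 0.0457). The test was no longer passed by SNORD33 without shIRF1 CDDP 3 (adjusted p 0.0541), SNORD3C in 10 of the 12 fits without 1 array (adjusted p 0.0527 to 0.128) and SNORD84 in 10 of the 12 fits without 1 array (adjusted p 0.055 to 0.151). Host genes of snoRNAs had negative changes in 11 of 12 SNHG genes, a median of -0.476 and 2 falls that passed (16.7%): SNHG15 at -0.89 (adjusted p = 0.0446) and SNHG12 at -0.77 (adjusted p = 0.0424). With single arrays left out, the call ended for SNHG15 in 9 of the 12 fits without 1 array (adjusted p 0.0517 to 0.174) and SNHG12 in 9 of the 12 fits without 1 array (adjusted p 0.055 to 0.127). SNHG1 was at -0.74 (adjusted p = 0.0504).

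Of 13 snRNAs 1 was called (7.69%, against 4.45% of all features), the U4 spliceosomal RNA RNU4-2. Its level was 6.81, 6.25 and 6.41 on the control arrays and 9.42, 9.21 and 8.39 on the shIRF1 arrays, a change of 2.52 (SE 0.24, adjusted p = 1.75e-05), with the third shIRF1 array the lowest of its group. In the list of 44 proteins of small RNA maturation 2 fell (4.55%, near the 4.45% of all features). With each array scaled to the same median 0 were called, as without the control and the shIRF1 array of lowest weight. PARN went from 6.58, 6.23 and 7.12 to 4.97, 5.6 and 5.69, a change of -1.22 (SE 0.24, adjusted p = 0.0101), and EXOSC8, a ring subunit of the RNA exosome, changed by -0.95 (adjusted p = 0.0242). In fits without single arrays, the call was lost for PARN without shIRF1 CDDP 1 (adjusted p 0.0533) and EXOSC8 without shCTRL CDDP 2 or 3 or shIRF1 CDDP 1 (adjusted p 0.0537 to 0.0974). Histone genes, whose main transcripts lack poly(A) tails, had positive changes in 22 of 24 members and a median of 0.46. The test was passed by 3 of them (12.5%, against 4.45% of all features). These were H2AC18 at 1.13 (adjusted p = 0.0435), H2AC21 at 0.93 (adjusted p = 0.0181) and H1-2 at 0.69 (adjusted p = 0.0444). Leaving out single arrays cost the call of H2AC18 in 9 of the 12 fits without 1 array (adjusted p 0.0552 to 0.129), H2AC21 without shCTRL CDDP 1 or 3 or shIRF1 CDDP 1 or 3 (adjusted p 0.0593 to 0.0691) and H1-2 in 11 of the 12 fits without 1 array (adjusted p 0.0517 to 0.141). For H2AC18 the change was 0.67 (adjusted p = 0.0909) without shCTRL CDDP replicate 3, and copies of histone genes can share probes. The share of RNA with poly(A) tails was not measured, and its part in the values of snoRNAs and histones was not tested.

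**Figure D3:**
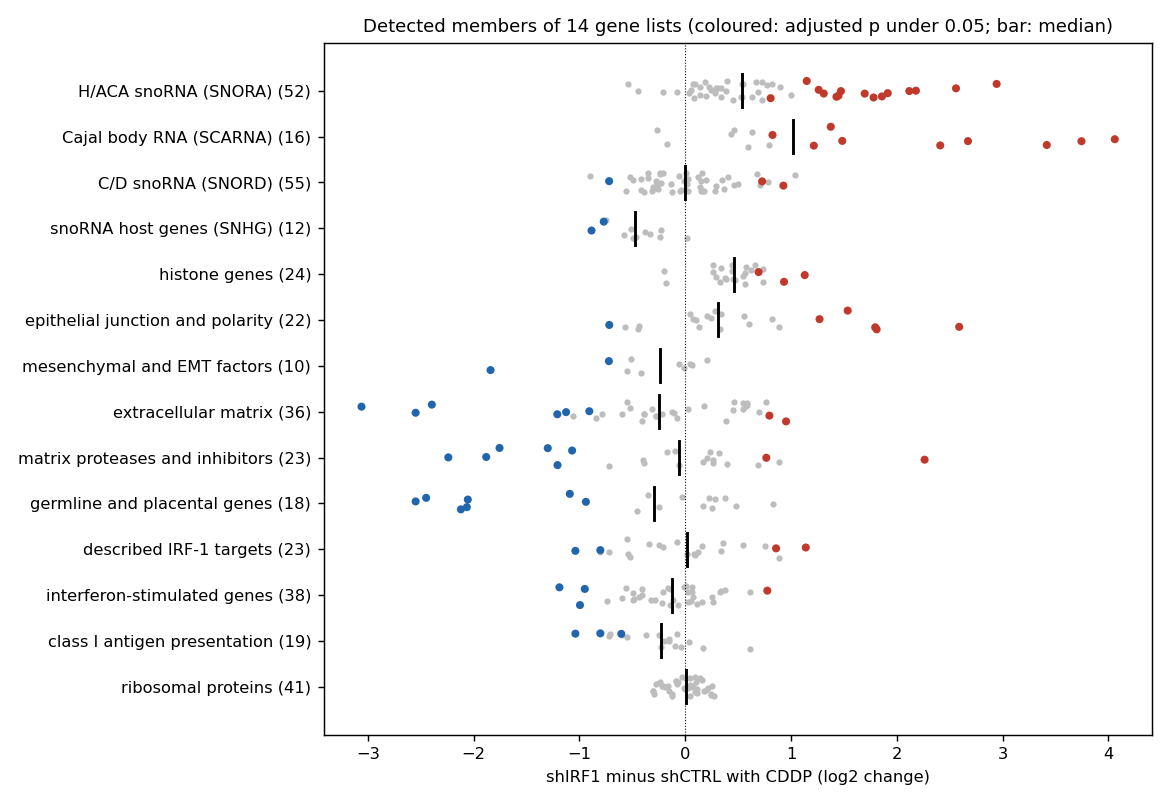
Log2 change of shIRF1 minus shCTRL with CDDP (horizontal axis) for the detected members of 14 gene lists, 1 point per gene, with the number of members in brackets and the list median as a bar. Red points were called higher and blue points lower; the SNORA and SCARNA medians are 0.536 and 1.02, the SNORD median is 0.00241, and the 41 ribosomal protein genes lie close to 0 with no call.

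Shares of calls in the p53 (3.85%), repair (2.94%), BCL2 (5.88%) and death receptor (5%) lists were near the 4.45% of all features, so the counts show nothing particular to them. Of 26 p53-linked genes GADD45B, a stress-induced growth regulator, was called, at -0.87 (adjusted p = 0.0228), and CDKN1A, the p21 cell cycle inhibitor, was at 11.59, 12.06 and 11.04 against 11.13, 11.4 and 10.55, a change of -0.54 (adjusted p = 0.362). CDKN1A was at -0.291 without shCTRL CDDP 2 and at -0.3 without shIRF1 CDDP 3. Without the control and the shIRF1 array of lowest weight it was at -0.849. Of 34 crosslink and excision repair genes FANCC, of the Fanconi anaemia core complex, was called, at 0.76 (adjusted p = 0.0338). Among 17 BCL2 family genes BCL2L1, whose main product BCL-XL protects against cell death, went from 10.03, 10.16 and 10.11 to 10.51, 10.97 and 11.03, a change of 0.74 (SE 0.18, adjusted p = 0.0323). Among 20 death receptor and caspase genes TNFRSF21 (death receptor 6) went from 9.47, 9.56 and 9.55 to 10.38, 10.23 and 10.78, a change of 0.94 (SE 0.18, adjusted p = 0.00797). Leaving out 1 array ended the call for GADD45B without shCTRL CDDP 2 or 3 or shIRF1 CDDP 3 (adjusted p 0.0578 to 0.114), FANCC without shCTRL CDDP 2 or 3 or shIRF1 CDDP 1 or 3 (adjusted p 0.088 to 0.119) and BCL2L1 in 5 of the 12 fits without 1 array (adjusted p 0.0619 to 0.132). The 12 platinum and drug transporters gave 0 calls, and ABCC3, an export pump, was at -0.92 (adjusted p = 0.0735).

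Metallothioneins, small metal-binding proteins that can also bind platinum, gave 2 rises among 5 members with a median of 0.146. That is 40% called, against 4.45% of all features, and without CDDP 2 were called higher and 2 lower. MT1E was at 5.47, 5.99 and 6.43 against 8.04, 7.62 and 7.52, a change of 1.76 (SE 0.24, adjusted p = 0.000631), and MT1F changed by 1.3 (adjusted p = 0.019), whereas MT2A was at -0.45 (adjusted p = 0.266) and MT1G at -0.67 (adjusted p = 0.132). The test was no longer passed by MT1F without shCTRL CDDP 1 or 2 or shIRF1 CDDP 1 or 2 (adjusted p 0.051 to 0.092). The MT1 genes are close copies, so the probes may not be specific. In the NRF2 and glutathione list 3 of 34 fell (8.82%, against 4.45% of all features). These were AKR1C2, an aldo-keto reductase, at -1.04 (adjusted p = 0.0343), ME1 (malic enzyme) at -0.93 (adjusted p = 0.0349) and TALDO1 (transaldolase) at -0.79 (adjusted p = 0.0106). With single arrays left out, the call ended for AKR1C2 without shCTRL CDDP 2 or 3 or shIRF1 CDDP 1 or 2 (adjusted p 0.0561 to 0.137), ME1 in 5 of the 12 fits without 1 array (adjusted p 0.0507 to 0.133) and TALDO1 without shIRF1 CDDP 3 (adjusted p 0.0538).

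Cell cycle lists held no larger share of calls than the 4.45% of all features. Of 43 S phase and E2F genes 1 fell (CDC6), of 54 mitosis and spindle genes 1 rose (CENPF) and 1 fell (CENPW), and of 15 G1 cyclins, CDKs and inhibitors 0 were called. CDC6, a replication licensing factor, changed by -0.76 (adjusted p = 0.0355) and CENPF, a kinetochore protein, by 0.9 (adjusted p = 0.0271). CENPW, a histone-fold protein of the inner kinetochore, went from 10.02, 9.78 and 9.86 to 7.76, 8.3 and 8.11. All shIRF1 arrays were well below all controls, with a change of -1.83 (SE 0.21, adjusted p = 9.62e-05). In fits without single arrays, the call was lost for CDC6 in 6 of the 12 fits without 1 array (adjusted p 0.0596 to 0.105) and CENPF without shCTRL CDDP 1 or 2 or shIRF1 CDDP 1 or 3 (adjusted p 0.0601 to 0.11).

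Beside the 4.45% of all features, the stress lists had no calls: 0 of 27 immediate early and AP-1 genes, with a median of -0.271, and 0 of 25 integrated stress and unfolded protein genes, with a median of -0.177. KLF4, a zinc finger factor, was at -0.96 (adjusted p = 0.0634), ATF3, a stress-induced bZIP factor, at -0.71 (adjusted p = 0.0956) and DDIT3 (CHOP) at -0.61 (adjusted p = 0.115). These 3 genes passed without background correction and on the series matrix values, KLF4 in 7 settings in all, and in both of those settings 4 immediate early genes were called lower. The 19 heat shock genes, the 37 respiratory chain genes and the 41 ribosomal protein genes had 0 calls each, with a ribosomal median of 0.00807.

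Metabolic genes gave a few calls, at shares near the 4.45% of all features. They were 5.26% for branched-chain and propionate catabolism, 6.45% for hypoxia and glycolysis and 3.57% for cholesterol and fatty acid synthesis. PCCA, the alpha subunit of propionyl-CoA carboxylase, was the only call among 19 genes of branched-chain and propionate catabolism. It stood at 4.89, 6.02 and 5.9 on the control arrays and at 8.11, 8.16 and 8.85 on the shIRF1 arrays, a change of 2.77 (SE 0.28, adjusted p = 2.71e-05). In the hypoxia and glycolysis list of 31, CA12, a membrane carbonic anhydrase, went from 5.96, 6.62 and 6.67 to 7.8, 7.75 and 8.62, a change of 1.64 (SE 0.26, adjusted p = 0.00153). A second CA12 probe was at 0.55 (adjusted p = 0.382). ADM (adrenomedullin, a vasoactive peptide) fell from 12.08, 12.43 and 12.09 to 11.25, 11.39 and 10.9, a change of -1.02 (SE 0.19, adjusted p = 0.00657). TM7SF2, a sterol reductase, rose by 1.37 (adjusted p = 0.0132) among 28 genes of cholesterol and fatty acid synthesis. Leaving out single arrays cost the call of TM7SF2 without shCTRL CDDP 1 or shIRF1 CDDP 1 (adjusted p 0.0558 to 0.0699).

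Among secretory granule and neural-type genes, 1 of 11 rose and 1 fell (18.2% called, against 4.45% of all features). CHGA encodes chromogranin A, the main soluble protein of neuroendocrine granules. It was at 4.61, 5.65 and 5.7 on the control arrays and at 6.92, 9.12 and 10 on the shIRF1 arrays, so the shIRF1 arrays were widely spread and all of them exceeded the controls. The change was 3.36 (SE 0.66, adjusted p = 0.00874), and without shIRF1 CDDP replicate 3, the highest array, it was 2.7 (adjusted p = 0.0538). UCHL1, a neuronal deubiquitinase, changed by -0.72 (adjusted p = 0.0343). Leaving out 1 array ended the call for UCHL1 in 5 of the 12 fits without 1 array (adjusted p 0.0638 to 0.117). Of 7 ovarian lineage genes MUC1, a membrane mucin, rose by 1.04 (adjusted p = 0.0469) and FOLR1, the folate receptor alpha of ovarian carcinoma, fell. That is 28.6% called, against 4.45% of all features. FOLR1 was at 8.65, 9.26 and 8.98 against 7.3, 7.13 and 6.45, a change of -2.0 (SE 0.26, adjusted p = 0.000319), and a second FOLR1 probe was at -0.61 (adjusted p = 0.266). The test was no longer passed by MUC1 in 9 of the 12 fits without 1 array (adjusted p 0.052 to 0.173). PAX8, the Müllerian lineage factor, was at 0.13 (adjusted p = 0.798).

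Further genes among the 30 largest rises fell outside these lists. PEG10, an imprinted gene derived from a retrotransposon, was undetected on all control arrays and was at 6.62, 6.45 and 6.76 on the shIRF1 arrays, at least 3.18-fold higher (adjusted p = 9.47e-06). RBM47, an RNA-binding protein of epithelial cells, went from 7.41, 7.17 and 7.7 to 8.68, 8.8 and 9.9, a change of 1.7 (SE 0.28, adjusted p = 0.00201). SGPP2, a sphingosine-1-phosphate phosphatase, went from 6.37, 6.33 and 6.59 to 8.04, 7.7 and 8.61, a change of 1.69 (SE 0.23, adjusted p = 0.000457). These rises held with any single array left out. TRIM2, a ubiquitin ligase, rose by 1.96 (adjusted p = 0.000849), PRRX2, a homeobox factor, by 1.85 (adjusted p = 0.000631), SORBS2, an actin adaptor, by 1.72 (adjusted p = 0.000594) and WDR72, a WD repeat protein, by 1.86 (adjusted p = 0.00552).

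Among the largest falls outside the lists, FAM83A, a protein linked to EGF receptor signalling, was at 8.79, 8.6 and 8.69 on the control arrays and at 5.39, 6.06 and 5.41 on the shIRF1 arrays. The control arrays were nearly equal, and the fall was 3.07 (SE 0.19, adjusted p = 3.19e-07). SPHK1, sphingosine kinase 1, which makes sphingosine-1-phosphate, went from 8.78, 8.96 and 8.37 to 6.87, 7.33 and 6.24, a change of -1.89 (SE 0.33, adjusted p = 0.0037), while its second, dimmer probe was at -0.42 (adjusted p = 0.418). SURF4, a cargo receptor of the early secretory pathway, went from 10.61, 10.35 and 10.18 to 8.52, 8.74 and 8.41, a change of -1.82 (SE 0.17, adjusted p = 1.26e-05). SRPX, a sushi repeat protein, changed by -2.3 (adjusted p = 1.75e-05), HS3ST3A1, a heparan sulfate sulfotransferase, by -1.97 (adjusted p = 7.1e-05), POPDC1, a cAMP-binding membrane protein, by -1.95 (adjusted p = 1.75e-05), CES1, a carboxylesterase, by -2.13 (adjusted p = 0.00593) and FAM25A by -2.39 (adjusted p = 2.61e-05). PI16, a peptidase inhibitor, was undetected on all shIRF1 arrays and at least 3.13-fold lower (adjusted p = 0.00171). Probes assigned to the annexin A2 pseudogenes ANXA2P1 and ANXA2P3 changed by -1.87 (adjusted p = 9.03e-05) and -1.91 (adjusted p = 0.000142), and near-identity with ANXA2 makes their source uncertain.

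By class of gene, protein-coding genes were called in 5.14% of 10674 cases, 233 higher and 316 lower, and features with no gene class here in 2.34% of 4282. Of 188 long noncoding RNAs 1 rose and 7 fell (4.26%, near the 4.45% of all features). Another detected probe existed for 173 of the called genes, 219 probes in all, of which 204 had the same sign, 78 were themselves called in the same direction and none was called in the opposite one. Conversely, further named genes whose brightest probe was not called had another probe that passed. With the same sign as the brightest probe these were HLA-F at -0.85 (adjusted p = 0.0152), HSPA2 at 0.69 (adjusted p = 0.0291), SNHG5 at -0.65 (adjusted p = 0.0483) and ZMAT3 at 0.84 (adjusted p = 0.0469). The ERAP2 probes disagreed in direction, with -0.72 (adjusted p = 0.0494) for the dimmer probe and 0.61 for the brightest, which was not called.

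The shRNA labels gave much the same direction of change with and without CDDP. Without CDDP, 957 of the 15521 features (6.17%) were called. Of the 691 features called with CDDP, 359 were also called without it in the same direction, 155 higher and 204 lower, which is 52.0% of the calls with CDDP and 37.5% of those without. The sign was the same without CDDP for 640 of the 691 (92.6%), against 64.0% of all features, and the 2 comparisons share no array, although all 12 arrays were normalised together. Most large changes were present in both: CDH1 was at 3.09 without CDDP, SNAI2 at -2.58, MMP7 at 2.9, CHGA at 4.15, SCARNA11 at 4.04 and SPOCK1 at -2.7. Another 4 were called in opposite directions and 328 were called with CDDP only, and a call in 1 arm alone does not show that the arms differ.

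**Figure D4:**
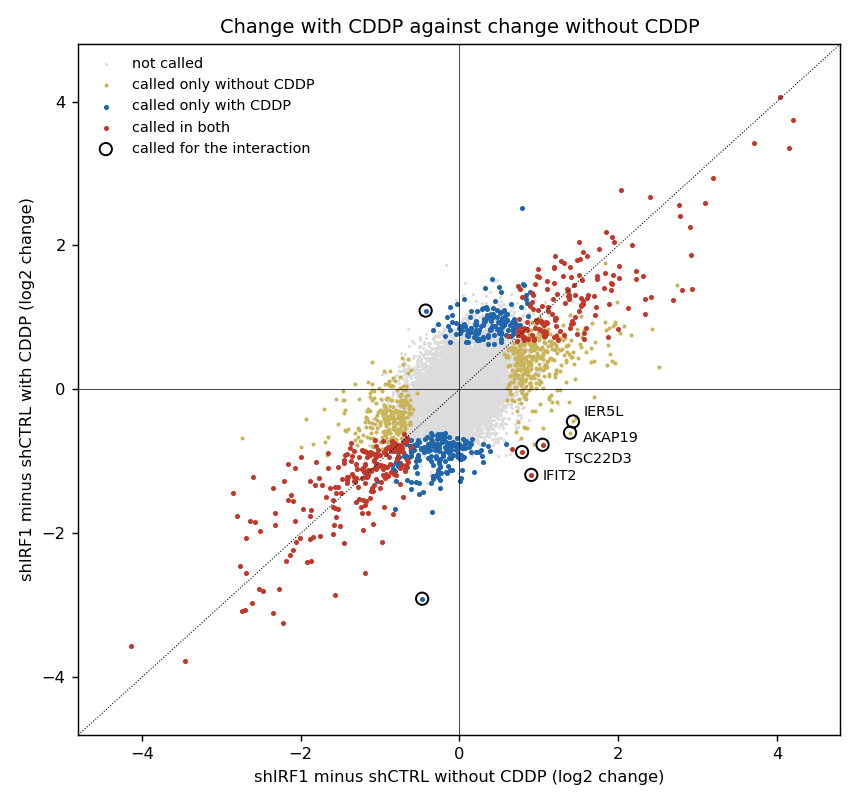
Log2 change of shIRF1 minus shCTRL with CDDP (vertical axis) against the same change without CDDP (horizontal axis), 1 point per feature, with the line of equal change dotted. Red features were called in both arms, blue ones with CDDP only and tan ones without CDDP only, and 359 of the red ones have the same sign in both arms. The 7 circled features passed the interaction test; 5 of these lie to the lower right, higher without CDDP and lower with it.

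The interaction of shRNA label and CDDP, the test of the difference itself, was called for 7 of the 15521 features (0.0451%). IFIT2 was the interferon-stimulated gene among them. Without CDDP its levels were 5.53, 4.93 and 5.22 on the control arrays and 6.23, 5.74 and 6.42 on the shIRF1 arrays, a rise of 0.91 (adjusted p = 0.0197), and with CDDP the change was -1.19. The difference of the changes was -2.09 (SE 0.3, adjusted p = 0.0153). The shCTRL mean rose from 5.23 without to 6.97 with CDDP, while the shIRF1 means were 6.13 and 5.78. TSC22D3 (GILZ, a glucocorticoid-induced leucine zipper protein) followed the same order, with 0.79 without and -0.87 with CDDP and a difference of -1.66 (SE 0.24, adjusted p = 0.0153); a second TSC22D3 probe changed by -0.69 (adjusted p = 0.231) with CDDP.

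IER5L, an immediate early response family member, had 7.33, 7.49 and 7.27 against 9.03, 8.76 and 8.59 without CDDP and 8.79, 8.83 and 8.41 against 8.42, 8.34 and 7.93 with it. Its change was 1.43 without CDDP (adjusted p = 0.00029) and -0.45 (adjusted p = 0.231) with CDDP, so the called part was the rise without the drug. AKAP19, a small anchor protein of protein kinase A, was at 1.39 without and -0.6 (adjusted p = 0.128) with CDDP. RNU4-2, with 0.78 without and 2.52 with CDDP, had an unadjusted interaction p of 0.000146 and did not pass after adjustment (adjusted p = 0.093). Among the 691 features called with CDDP, 199 had an unadjusted interaction p under 0.05. These features were selected by their change with CDDP, which is itself part of the interaction. The share over all features was not computed, so the count does not show how many changes depend on CDDP. The interaction calls were sensitive to single arrays and to the spread model, with 1 call left without shCTRL replicate 3 or without shCTRL CDDP replicate 2, and 17 on the deposited normalised values.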

How the data were processed

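Messenger RNA was measured on 12 Illumina bead arrays, 3 for each of 4 groups, 6 of them with CDDP. The deposited table gives, for 47313 probes, the average signal on a linear intensity scale, not yet scaled between arrays, and the detection p-value of each signal, per the file headers. Per the submitters' processing notes BeadStudio 2 was used. The deposited series matrix holds the authors' processed values, which served as an alternative.

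Intensities were background-corrected with normexp, given an offset of 16, quantile-normalised over 12 arrays and put on a log2 scale (neqc, limma 3.58.1 in R 4.3.3). Probes detected at p under 0.05 on 3 or more of 12 arrays were tested, 1 per gene, the brightest. Of 47313 probes 30109 had 1 symbol, 8 had several and 17196 were unnamed here. One linear model held the 4 groups, so the spread came from all 12 arrays (8 residual and 7.18 prior degrees of freedom). Contrasts were tested with eBayes and Benjamini-Hochberg adjustment over 17988 features. The number of arrays limits the precision. Where no array of a group detected a gene, the change is a lower bound: the brighter group's mean over the higher of the dim probe's own signal and the lowest signal among detected probes of each array, written "at least". The fit was tested on simulated data.

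Members and lists were chosen with earlier results of these data known. Named genes are IRF1, the 30 largest called rises and falls with groups that do not overlap, up to 6 members per list with called ones first, and called interactions. The labels state no pairing by replicate number, so the main fit used none. Alternatives varied background correction, scaling, detection filter, arrays, replicate block, array weights, variance trend, probe choice and source of the values.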

Additional observations from a re-analysis of the deposited data

Results flagged for a closer look

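7 features differed between the arms with and without CDDP by the interaction test, and the values below are the difference of the log2 changes. It was -2.09 for IFIT2 (adjusted p = 0.0153), -1.66 for TSC22D3 (adjusted p = 0.0153), -1.88 for IER5L (adjusted p = 0.0153) and -2.0 for AKAP19 (adjusted p = 0.0153), each higher with the shIRF1 label without CDDP and lower in the mean with it.

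The other 3 are probes without a gene name here. ILMN_1764709 stood at 8.39, 8.65 and 8.18 on the control arrays with CDDP and at 4.82, 6.01 and 5.67 on the shIRF1 arrays with CDDP, and its difference was -2.44 (adjusted p = 0.0191). ILMN_3240626 had a difference of -1.82 (adjusted p = 0.0121). ILMN_1673113 went the other way, with a difference of 1.52 (adjusted p = 0.027), from -0.43 without CDDP to 1.09 with it. Groups of 3 arrays were not searched for single outlying arrays.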

How the results depend on the processing

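The 691 calls with CDDP became 310 with each array scaled to the same median, 329 with the spread from the 6 compared arrays alone, 420 without the 2 CDDP arrays of lowest weight (shCTRL replicate 3 and shIRF1 replicate 1, chosen after seeing the data) and 356 to 727 with single arrays left out. The 957 calls without CDDP became 449 with median scaling and 526 to 1067 with single arrays left out, the lowest without shIRF1 replicate 1. The 7 interaction calls became 11 without background correction or without a detection filter, 3 with median scaling, 12 with array weights, 14 with a variance trend, 17 on the series matrix values, 2 without the 2 arrays of lowest weight and 1 to 9 with single arrays left out. Median scaling ended 45 of the 128 named calls and the fit of 6 arrays alone ended 39. With the replicate block there were 832 calls (377 higher and 455 lower) and 3 of the 128 named calls ended, while IL32 passed (adjusted p = 0.000152). Deviations of same-numbered arrays correlated at 0.141, 0.0638 and 0.0828 for replicates 1 to 3. The best correlations with another number were 0.0342, 0.107 and 0.000511. Whether the numbers pair the samples is thus not settled. Beside these, the settings kept each count within 1.5 times. None of the 128 named calls, which were picked from these same arrays, changed direction in the settings run. Dim probes near background limit the size of a change, which is compressed without background correction.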

Other observations

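5 genes that were detected on fewer than 3 of the 6 arrays with CDDP, and so stand outside the comparison, were also called for the interaction over all 12 arrays. DEPTOR, an inhibitor of mTOR, was at 5.31 on average on the shCTRL arrays and at 8.81 on the shIRF1 arrays without CDDP, a change of 3.51 (adjusted p = 1.41e-08). NCALD, a neuronal calcium sensor, changed by 1.78 without CDDP. MPPED2, LMO3 and CACNA1H were undetected on every shCTRL array and detected on every shIRF1 array without CDDP, and were at least 3.86-fold, at least 3.26-fold and at least 2.74-fold higher there. With CDDP none of the 5 was detected on any control array, and DEPTOR was detected on 2 shIRF1 arrays, MPPED2 and NCALD on 1 each and the others on none.

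By chromosome, the share of detected named genes called with CDDP ran highest on chromosome 21, with 12 of 115 (10.4%), 9 higher and 3 lower, and on chromosome 10, with 35 of 435 (8.05%), 11 higher and 24 lower. These shares were not tested. The probe without a gene name ILMN_1666845 had the largest fall of all features, -3.78 (adjusted p = 3.17e-06).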
